A study of Homo sapiens with 4 samples.

Results

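The nuclear-encoded respiratory chain genes are 85 of the 36602 genes counted in this single-cell RNA sequencing experiment. They were chosen by symbol, without using any measured value: the numbered NDUFA, NDUFB, NDUFC, NDUFS and NDUFV genes, except NDUFA4, for complex I, the UQCR genes for complex III, the COX4 to COX8 genes for complex IV and the ATP5 genes for complex V. By this rule complex I had 40 members, complex III 9, complex IV 17 and complex V 19. Of the 85 members, 73 had a mean of 20 or more CPM (counts in each 1000000 UMIs, where a UMI, or unique molecular identifier, stands for 1 captured RNA molecule) and entered the counts of genes below: 36 of complex I, 8 of complex III, 11 of complex IV and 18 of complex V. The lowest mean among these was 47.2 CPM (NDUFA3), and the highest mean among the other 12 was 7.82 CPM (UQCRHL).

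OVCAR5 is an established human ovarian carcinoma cell line. Its cultures had received the supernatant of tumor cells grown together with T cells, and 1 pool of 24 conditions was sequenced by a droplet-based 3′ method. Per the labels, the conditions were no supernatant, undiluted supernatant and dilutions of 5, 25, 125 and 625 times, each at 2, 6, 12 and 24 h, with 1 culture per condition. Cells carried a pair of oligonucleotide hashtags that marks their culture, but the sources used here do not tie the 24 tag pairs to the conditions, so tag pairs are given by their tags (HTO3/HTO9), with no dose or time, and are no replicates of one another.

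The respiratory chain passes electrons through protein complexes of the inner mitochondrial membrane and pumps protons, and complex V (ATP synthase) uses the proton gradient to make ATP. Complex I oxidizes NADH, complex III passes electrons from ubiquinol to cytochrome c, and complex IV (cytochrome c oxidase) passes them on to oxygen. Complexes I, III, IV and V are built from subunits of both genomes: mitochondrial DNA encodes the catalytic core of complex IV, the membrane core of complex I, cytochrome b of complex III and some membrane subunits of complex V. Nuclear genes encode the other subunits, whose proteins are imported.

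Of the 10660 barcodes, 6408 were kept, with 1000 or more genes detected and no more than 20% of UMIs from mitochondrial genes. A tag pair could be assigned to 5298 of these, with 137 to 272 cells and 1863154 to 3904112 UMIs per pair, so that 3 counts were worth between 0.768 and 1.61 CPM. The median depth per cell ran from 9389 UMIs in HTO3/HTO9 to 14795 UMIs. The mitochondrial share of UMIs ran from 8.83% in HTO7/HTO10 over a median of 10.2% to 13.3% in HTO3/HTO9. Epithelial markers summed to 1894 to 3739 CPM (EPCAM 22.3 to 59.5 CPM), with the ovarian markers PAX8 and MUC16 at 221 and 4 UMIs in all. CDH1 was low as well, at 170 UMIs in all. KRT81, taken as the marker of a second epithelial population, ran from 4.62 CPM over a median of 121 to 248 CPM. Cells with KRT81 were kept in the sums, and an alternative without cells of 5 or more KRT81 UMIs used 5157 cells. T cell markers summed to 0 to 6.98 CPM, with PTPRC, CD3E, CD3G and CD2 at 0 UMIs. Of their 230 UMIs in all, TRBC2 had 201 and CD8A had 20. HTO3/HTO9, which had the lowest depth and the highest mitochondrial share, also stood apart in many of the results, which are given with and without it.

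RefSeq (GRCh38.p14) promoter windows, from 250 bases before to 50 bases after the start of transcription, were matched to 70 of the 85 members. The NRF1 motif GCGCANGCG, of a transcription factor known for driving nuclear genes of the respiratory chain, was found on either strand in 20 of the 70 windows (28.6%) and in 7.52% of all 35116 windows of the table. The ETS family motif CCGGAAG was found in 18 members (25.7%) against 10.3% of all windows, and the YY1 motif AAGATGGCG in 8 members (11.4%) against 1.75%. The windows of NDUFA6 and its noncoding neighbour NDUFA6-DT overlap, and the same YY1 match was counted for both. The 70 windows include those of noncoding members and of members with few or no UMIs. GAAANNGAA, the core of the interferon-stimulated response element, was found in 5 members (7.14%) against 8.11% of all windows. Both strands were searched. The NRF1 letters are nearly their own reverse complement, so that matches on the 2 strands can overlap and were not counted as separate windows.

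The windows below belong to members whose levels followed, or went against, the interferon gamma level described further on, and were picked for that after the values had been seen. COX5B and COX6A1 encode complex IV subunits that were positively correlated with it. COX5A encodes a complex IV subunit that was negatively correlated, as were NDUFA12, an accessory subunit of complex I, and UQCRFS1, the Rieske iron-sulfur protein of complex III. Capitals mark matches to the NRF1 or ETS family letters on either strand, each sequence reads 5′ to 3′ on the strand of the gene, and coordinates are GRCh38.p14.
COX5B (chr2:97645812-97646111, plus strand): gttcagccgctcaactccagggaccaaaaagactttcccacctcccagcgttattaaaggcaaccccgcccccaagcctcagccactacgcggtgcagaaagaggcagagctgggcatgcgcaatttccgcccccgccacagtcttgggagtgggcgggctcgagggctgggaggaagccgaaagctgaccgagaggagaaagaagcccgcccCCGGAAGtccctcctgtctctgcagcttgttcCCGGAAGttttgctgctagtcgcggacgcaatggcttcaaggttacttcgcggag
COX6A1 (chr12:120437863-120438162, plus strand): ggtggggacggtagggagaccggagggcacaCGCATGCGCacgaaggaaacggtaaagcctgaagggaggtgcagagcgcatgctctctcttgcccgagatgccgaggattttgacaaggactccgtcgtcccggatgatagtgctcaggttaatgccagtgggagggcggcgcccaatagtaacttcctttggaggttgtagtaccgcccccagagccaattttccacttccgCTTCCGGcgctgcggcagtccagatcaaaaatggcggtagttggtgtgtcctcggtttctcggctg
COX5A (chr15:74938024-74938323, minus strand): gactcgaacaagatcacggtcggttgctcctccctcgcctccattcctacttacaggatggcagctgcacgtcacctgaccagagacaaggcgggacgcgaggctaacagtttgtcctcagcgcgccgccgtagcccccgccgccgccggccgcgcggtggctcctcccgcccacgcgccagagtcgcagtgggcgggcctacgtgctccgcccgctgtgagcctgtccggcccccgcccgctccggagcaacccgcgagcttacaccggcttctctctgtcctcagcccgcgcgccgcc
NDUFA12 (chr12:95003648-95003947, minus strand): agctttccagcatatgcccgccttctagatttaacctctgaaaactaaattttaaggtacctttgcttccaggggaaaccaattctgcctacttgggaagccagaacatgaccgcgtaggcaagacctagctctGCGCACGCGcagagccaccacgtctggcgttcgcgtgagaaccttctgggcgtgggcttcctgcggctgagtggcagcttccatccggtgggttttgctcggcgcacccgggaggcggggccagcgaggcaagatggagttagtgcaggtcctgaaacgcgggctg
UQCRFS1 (chr19:29213102-29213401, minus strand): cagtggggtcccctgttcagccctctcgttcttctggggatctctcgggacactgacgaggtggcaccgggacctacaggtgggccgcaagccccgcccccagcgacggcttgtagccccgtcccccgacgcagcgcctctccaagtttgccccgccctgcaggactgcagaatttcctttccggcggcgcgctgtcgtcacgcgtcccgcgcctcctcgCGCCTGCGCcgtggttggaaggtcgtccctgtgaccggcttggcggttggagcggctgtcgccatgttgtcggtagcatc
The COX5B window held 2 ETS family matches close to the start of transcription. The COX6A1 window held 1 match to the ETS family letters and 1 to those of NRF1, and NDUFA12 and UQCRFS1 held 1 NRF1 match each. The COX5A window held none of these letters. A match of letters describes the window only and is not evidence that a factor binds there.

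The 85 members together took about the same share of the RNA in most tag pairs. Their summed level was 18224 CPM in HTO3/HTO9, had a median of 21295 CPM over the 24 pairs and reached 23435 CPM in HTO2/HTO9. The highest pair was 1.29 times the lowest (95% interval 1.27 to 1.30, for counting error only), and 1.14 times without HTO3/HTO9. The second lowest pair, HTO4/HTO9, had 20569 CPM, so that HTO3/HTO9 stood alone at the low end.

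Single members varied little as well. 1 of the 73 tested members ranged by 2-fold or more between its highest and lowest pair, on the log2(CPM + 10) scale, against 26.1% of the 5767 genes that passed the same minimum. Among the 3052 genes with a mean within the range of the tested members the share was 28.5%. Without HTO3/HTO9 no member and 20.2% of all genes reached 2-fold. The median member ranged 1.38-fold, and the median of all tested genes was 1.67-fold. The coefficient of variation beyond counting error had a median of 6.96% over the members and 12.6% over all tested genes. Each tested member had UMIs in all 24 pairs, and each cell assigned to a pair held at least 1 UMI of a member.

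**Figure D1:**
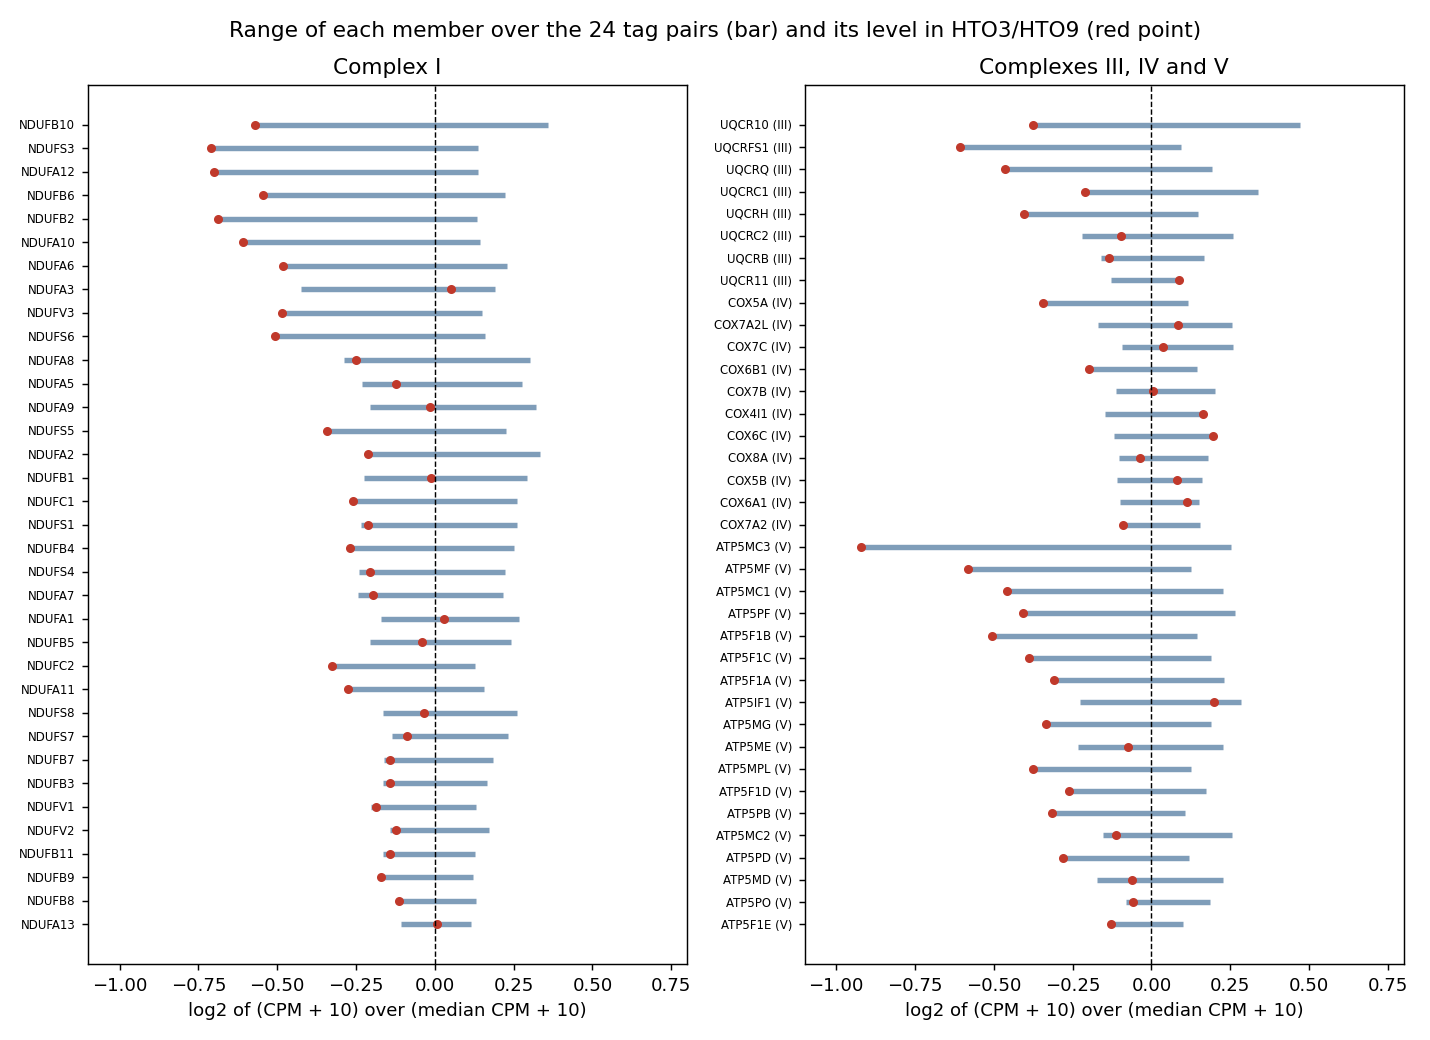
Range of 72 of the 73 tested members over the 24 tag pairs (bar, from lowest to highest, on the log2(CPM + 10) scale relative to the member's median pair) and its level in HTO3/HTO9 (red point), for complex I on the left and complexes III, IV and V on the right. The red point lies at the low end of the bar for 38 members, and the bar of ATP5MC3 is the longest.

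The low end was often HTO3/HTO9. In that pair 38 of 73 members had their lowest level, against 28.2% of all tested genes, and 3 members had their highest, against 11.9%. By complex, the lowest level was in HTO3/HTO9 for 17 of 36 members of complex I, 5 of 8 of complex III, 13 of 18 of complex V and 3 of 11 of complex IV. The 3 members that were highest there were UQCR11 of complex III and COX6C and COX4I1 of complex IV. The median of all tested genes was also lower in HTO3/HTO9, by 0.12 on the log2 scale against the median pair when scaled to non-mitochondrial UMIs, as is each value in the next sentence. Against the median pair, HTO3/HTO9 had 0.856 times the level of complex I, 0.845 times that of complex III, 0.809 times that of complex V and 1.05 times that of complex IV. With all UMIs, TMM or DESeq2 size factors as the scale, complexes I, III and V were lowest in HTO3/HTO9 of the 24 pairs in each case, and complex IV was at 1.02, 1.01 and 1.07 times the median pair.

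Complex I had 36 tested members, 7 of them core subunits that carry the flavin and iron-sulfur centres and 29 accessory subunits. The summed level of all 40 members ran from 5327 CPM in HTO3/HTO9 over a median of 6453 CPM to 7149 CPM in HTO2/HTO9, a ratio of 1.34 (95% interval 1.31 to 1.37), or 1.17 without HTO3/HTO9. The core subunits ranged 1.27-fold in sum (917 to 1167 CPM) and the accessory subunits 1.36-fold (4405 to 5978 CPM). No complex I member reached 2-fold.

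NDUFB10, an accessory subunit of the membrane arm, had 182 CPM in HTO3/HTO9, a median of 275 CPM and 355 CPM in HTO2/HTO9, a ratio of 1.96 (95% interval 1.75 to 2.19). NDUFS3, a core subunit of the hydrophilic arm, had 83.2 CPM in HTO3/HTO9, a median of 142 CPM and 158 CPM in HTO3/HTO8, a ratio of 1.89 (1.60 to 2.25). NDUFA12 had 82.0 CPM in HTO3/HTO9, a median of 139 CPM and 154 CPM in HTO3/HTO10, so that the highest was 1.88 times the lowest (1.60 to 2.21). HTO3/HTO9 was thus the lowest pair of each, while a different pair was the highest of each. Without it the ratios were 1.55 for NDUFB10, 1.80 for NDUFS3 and 1.45 for NDUFA12.

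The most abundant counts of complex I came from NDUFS6, NDUFA13 and NDUFC2. NDUFS6, an accessory subunit that holds zinc, ran from 435 CPM in HTO3/HTO9 over 623 to 697 CPM in HTO2/HTO9. NDUFC2, of the membrane arm, ran from 285 CPM in HTO3/HTO9 over 361 to 395 CPM in HTO7/HTO10. NDUFA13, also known as GRIM-19, ran from 424 CPM in HTO5/HTO9 over 457 to 496 CPM in HTO3/HTO10, and HTO3/HTO9 was near its median at 459 CPM. NDUFA13 and NDUFB8 had the narrowest ranges of the complex, 1.17-fold and 1.19-fold.

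Complex III had 8 tested members. The sum over all 9 members ran from 2279 CPM in HTO3/HTO9 over a median of 2794 CPM to 3182 CPM in HTO2/HTO9, a ratio of 1.40 (1.35 to 1.44), or 1.19 without HTO3/HTO9. UQCR10, a small subunit, had 258 CPM in HTO3/HTO9, a median of 338 CPM and 472 CPM in HTO2/HTO9, a ratio of 1.83 (1.67 to 2.01). UQCRFS1 had 121 CPM in HTO3/HTO9, a median of 189 CPM and 202 CPM in HTO3/HTO10, and the highest was 1.68 times the lowest (1.47 to 1.92).
The Rieske protein transfers electrons from ubiquinol to cytochrome c1. UQCRH, the hinge protein, ran from 587 CPM in HTO3/HTO9 over 779 to 864 CPM in HTO2/HTO9, and UQCRQ, which borders the cytochrome b subunit, from 388 CPM in HTO3/HTO9 over 540 to 617 CPM in HTO8/HTO9. UQCR11 and UQCRB moved least, 1.16-fold and 1.27-fold, and UQCR11 was highest in HTO3/HTO9 at 440 CPM. Reads of UQCRH may be divided with its near-identical copy UQCRHL (5.52 to 11.4 CPM), and how far this changes either level was not measured.

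Complex V had 18 tested members. The sum over all 19 members ran from 5544 CPM in HTO3/HTO9 over a median of 7110 CPM to 7703 CPM in HTO2/HTO9, a ratio of 1.39 (1.36 to 1.42), or 1.15 without HTO3/HTO9. The part with the widest range over all 24 pairs was the c ring, the rotor through which protons pass. Its proteins come from 3 genes, ATP5MC1, ATP5MC2 and ATP5MC3, which encode the same mature peptide. Their summed level was 1162 CPM in HTO3/HTO9, 1775 CPM in the median pair and 2116 CPM in HTO4/HTO8, a ratio of 1.82 (1.74 to 1.91). Without HTO3/HTO9 the ratio was 1.26, below the 1.45 of the inhibitor ATP5IF1, a ratio that did not rest on that pair.

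Within the c ring the 3 genes differed. ATP5MC3 (ENSG00000154518, GRCh38 chr2:175176258-175184607, minus strand) had 463 CPM in HTO3/HTO9, a median of 887 CPM and 1058 CPM in HTO4/HTO8. The ratio was 2.28 (2.13 to 2.45), and ATP5MC3 is the member that reached 2-fold. The next lowest pair had 773 CPM, and the ratio over the 23 other pairs was 1.37. ATP5MC1 had 467 CPM in HTO3/HTO9, a median of 645 CPM and 757 CPM in HTO4/HTO8, a ratio of 1.62 (1.50 to 1.75). ATP5MC2 had 224 CPM in HTO6/HTO10, a median of 251 CPM and 301 CPM in HTO4/HTO8, a ratio of 1.34 (1.21 to 1.49), with 231 CPM in HTO3/HTO9. In cells of 8 to 12% mitochondrial UMIs the level of ATP5MC3 in HTO3/HTO9 was 509 CPM, and in cells of 10000 to 20000 UMIs it was 490 CPM.

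The 5 F1 subunits ranged 1.26-fold in sum, the peripheral stalk 1.39-fold and the small membrane subunits 1.41-fold. ATP5F1E, the epsilon subunit, ran from 1129 CPM in HTO3/HTO9 over 1235 to 1324 CPM in HTO3/HTO8, and each of the 5 F1 subunits was lowest in HTO3/HTO9. ATP5MF, a small membrane subunit, ran from 201 CPM in HTO3/HTO9 over 306 to 335 CPM in HTO2/HTO9. ATP5PO, the stalk subunit that confers oligomycin sensitivity, ranged 1.21-fold (158 to 192 CPM). ATP5IF1, the protein that inhibits the ATPase in reverse, went another way: it was lowest in HTO1/HTO10 (151 CPM), had a median of 178 CPM, was highest in HTO2/HTO9 (219 CPM) and had 206 CPM in HTO3/HTO9.

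Complex IV had 11 tested members, of which COX7A2L is known as an assembly factor of supercomplexes and not as a subunit. The sum over all 17 members ran from 4760 CPM in HTO1/HTO10 over a median of 4984 CPM up to 5534 CPM in HTO5/HTO8, and the highest was 1.16 times the lowest (1.14 to 1.19), a value that did not change without HTO3/HTO9. COX6C had 703 CPM in HTO1/HTO10, a median of 763 CPM and 876 CPM in HTO3/HTO9. COX7A2 had 694 CPM in HTO3/HTO9, a median of 739 CPM and 824 CPM in HTO5/HTO8.
COX8A had 561 CPM in HTO9/HTO10, a median of 603 CPM and 685 CPM in HTO5/HTO8, and COX7C had 546 CPM in HTO1/HTO10, a median of 583 CPM and 699 CPM in HTO2/HTO9. These are small subunits around the catalytic core. COX6A1, the widely expressed isoform of subunit VIa, had 248 CPM in HTO2/HTO10, a median of 267 CPM and 298 CPM in HTO5/HTO8. COX5A, a matrix-side subunit, was the widest-ranging member of this complex: 237 CPM in HTO3/HTO9, a median of 303 CPM and 329 CPM in HTO2/HTO9, a ratio of 1.39 (1.26 to 1.54). The 3 next lowest pairs of COX5A were HTO7/HTO8, HTO5/HTO8 and HTO4/HTO9.

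**Figure D2:**
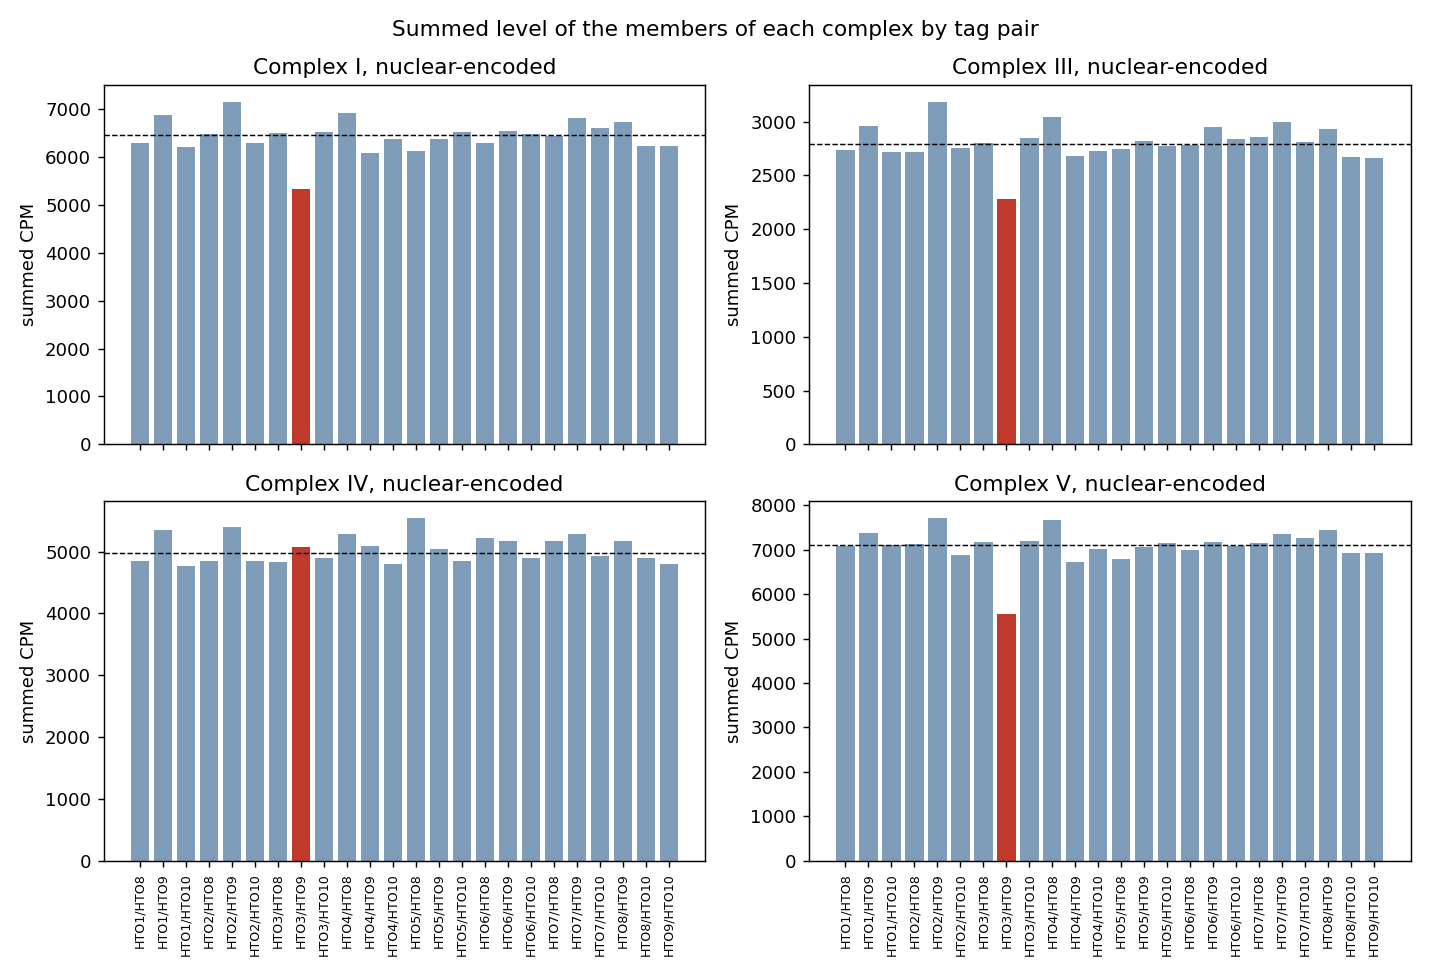
Summed CPM of the members of complexes I, III, IV and V (bars from 0, 1 bar per tag pair in the order of the tags, dashed line at the median pair); no replicates exist, so no error bars are drawn. HTO3/HTO9 (red) has the lowest bar in complexes I, III and V (5327, 2279 and 5544 CPM) and not in complex IV, whose lowest bar is HTO1/HTO10 (4760 CPM).

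The tissue-specific isoforms were at or near 0. COX4I2, COX6A2, COX7A1 and COX7B2, isoforms known from lung, muscle or testis, had 0 UMIs in all 24 pairs, where 3 counts in 1 pair would be at most 1.61 CPM. COX8C had 2 UMIs, NDUFA4L2, a hypoxia-induced paralogue, had 9 and COX6B2 had 18. The noncoding neighbours NDUFV2-AS1, NDUFB2-AS1 and NDUFA6-DT had 140, 70 and 19 UMIs, and ATP5MGL, a near-identical copy of ATP5MG, had 49. The strand setting of the counting is not given in the sources used here, so reads of these neighbours and of the overlapping genes may not be told apart.

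As the members moved unequally, the ratio of complex IV to complex I UMIs was computed within each pair, which does not depend on how pairs are scaled. This ratio was chosen after the sums had been seen. It was lowest in HTO3/HTO8 (0.744, 95% interval 0.727 to 0.761), had a median of 0.769 and was highest in HTO3/HTO9 (0.953, 0.930 to 0.976). HTO5/HTO8 followed with 0.902 (0.883 to 0.923), then HTO4/HTO9 with 0.834 and HTO6/HTO8 with 0.828. The 2 highest intervals did not overlap each other or that of any other pair. They cover counting error only and not the spread between cells or cultures, so this is no test between cultures. Among cells of 8 to 12% mitochondrial UMIs the ratio was again highest in HTO3/HTO9 (0.917), followed by HTO5/HTO8 (0.868), and among cells of 10000 to 20000 UMIs it was 0.951 and 0.904.

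The levels were set against 2 measures of each tag pair: its mitochondrial share of UMIs, and the summed level of 16 interferon gamma response genes, which ran from 350 CPM in HTO4/HTO8 over 3874 CPM to 19895 CPM in HTO3/HTO9. Interferon gamma is a cytokine that activated T cells release. For these comparisons members were scaled to non-mitochondrial UMIs. The 4 pairs with the lowest interferon gamma level (HTO1/HTO10, HTO2/HTO9, HTO4/HTO8 and HTO7/HTO10) were apart from the rest by a gap and were left out there, which leaves 20 pairs. The 2 measures were themselves correlated over these 20 pairs (r = 0.852, rho = 0.823, each with a permutation p of 1e-05, the smallest that 100000 resamples can give; r = 0.776 without the 2 farthest pairs), so that their parts in what follows cannot be told apart.

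Complex IV was higher in tag pairs with a higher mitochondrial share. Over 24 pairs r was 0.694 (permutation test, Benjamini-Hochberg adjusted p = 0.0013 over 10 relations; raw p = 0.00013) and rho was 0.663 (adjusted p = 0.0052). Without the 2 pairs farthest from the median share r was 0.643. The call was lost without HTO5/HTO8 or HTO5/HTO9, where a gap in the complex IV levels left 12 pairs (r = 0.544 in both cases, permutation tests, adjusted p = 0.165 and 0.160). With gaps in the complex IV level not used, r without HTO5/HTO8 was 0.623 over 23 pairs (permutation test, adjusted p = 0.0094). It was also lost under the stricter filter on cells (r = 0.159, adjusted permutation p = 0.762) and in cells of 8 to 12% mitochondrial UMIs, with 12 pairs left (r = 0.151, adjusted permutation p = 0.753). Both filters select cells by their mitochondrial share and so narrow this measure, by which these 2 values cannot decide whether the relation holds. In cells of 8 to 12% the share of a pair ran only from 9.68% in HTO7/HTO10 to 10.5% in HTO3/HTO9. With the interferon gamma level r of complex IV was 0.700 over 20 pairs (permutation test, adjusted p = 0.0032; raw p = 0.00064) and rho was 0.620 (adjusted p = 0.0235), and r was 0.619 without the 2 farthest pairs. The 4 pairs left out for their low interferon gamma level lay on both sides of the median of 5566 UMIs of complex IV in each 1000000 non-mitochondrial UMIs. HTO2/HTO9 had 5995, the second highest of the 24 pairs, and HTO4/HTO8 had 5861, while HTO7/HTO10 had 5408 and HTO1/HTO10 had 5254, the lowest. Leaving out HTO5/HTO8 or HTO5/HTO9 opened a gap in the complex IV levels, by which 10 pairs were left, with r = -0.204 (permutation test, adjusted p = 0.568). When gaps in the complex IV level were not used to divide the pairs, r without HTO5/HTO8 was 0.647 over 19 pairs (permutation test, adjusted p = 0.0179), and without HTO3/HTO9 and HTO5/HTO8 it was 0.619 over 18 pairs (adjusted p = 0.0376).

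The other complexes did not pass either test over all pairs on this scale. With the mitochondrial share r was -0.374 for complex I, -0.207 for complex III, -0.491 for complex V and -0.161 for all members (permutation tests, adjusted p = 0.126, 0.411, 0.0715 and 0.499). With the interferon gamma level r was -0.436 for complex I, -0.236 for complex III, -0.432 for complex V and -0.164 for all members (permutation tests, adjusted p = 0.0973, 0.411, 0.0973 and 0.499). These negative values rested on HTO3/HTO9. Without that pair, r with the mitochondrial share was -0.0193 for complex I, 0.224 for complex III, -0.0689 for complex V and 0.262 for all members, and with the interferon gamma level it was -0.189, 0.126, -0.116 and 0.21. Complexes I and V did pass when all UMIs were the denominator (complex I -0.551 and -0.577, complex V -0.633 and -0.548, for the mitochondrial share and the interferon gamma level), a scale in which a larger mitochondrial share lowers each nuclear gene. Complex V also passed with the mitochondrial share without HTO9/HTO10 (r = -0.533, permutation test, adjusted p = 0.0468) and in cells of 10000 to 20000 UMIs (r = -0.512, adjusted permutation p = 0.0316). With DESeq2 size factors complex I turned to 0.474 over 22 pairs and 0.348 over 19 pairs. Neither passed (permutation tests, adjusted p = 0.0867 and 0.361). The rule on gaps left fewer pairs there, so the scale and the pairs used changed together.

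The ratio of complex IV to complex I rose with both measures. HTO3/HTO9 and HTO5/HTO8 were apart from the rest by a gap in this ratio and were left out. Over the other 22 pairs r with the mitochondrial share was 0.826 and rho 0.798 (permutation p = 1e-05 and 6e-05, adjusted over the 2 added relations 1e-05 and 6e-05), and r was 0.730 without the 2 farthest pairs. Over 18 pairs r with the interferon gamma level was 0.917 and rho 0.889 (permutation test, adjusted p = 1e-05 and 2e-05), and r was 0.870 without the 2 farthest pairs. Conditions share doses and times by design, so tag pairs are not independent and these p-values may be too small. Among cells with 2000 or more genes and no more than 10% mitochondrial UMIs, which left as few as 30 cells per pair, r with the mitochondrial share was -0.057. That filter caps the mitochondrial share of each cell and so narrows the measure, by which this value cannot decide whether the relation holds.

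**Figure D3:**
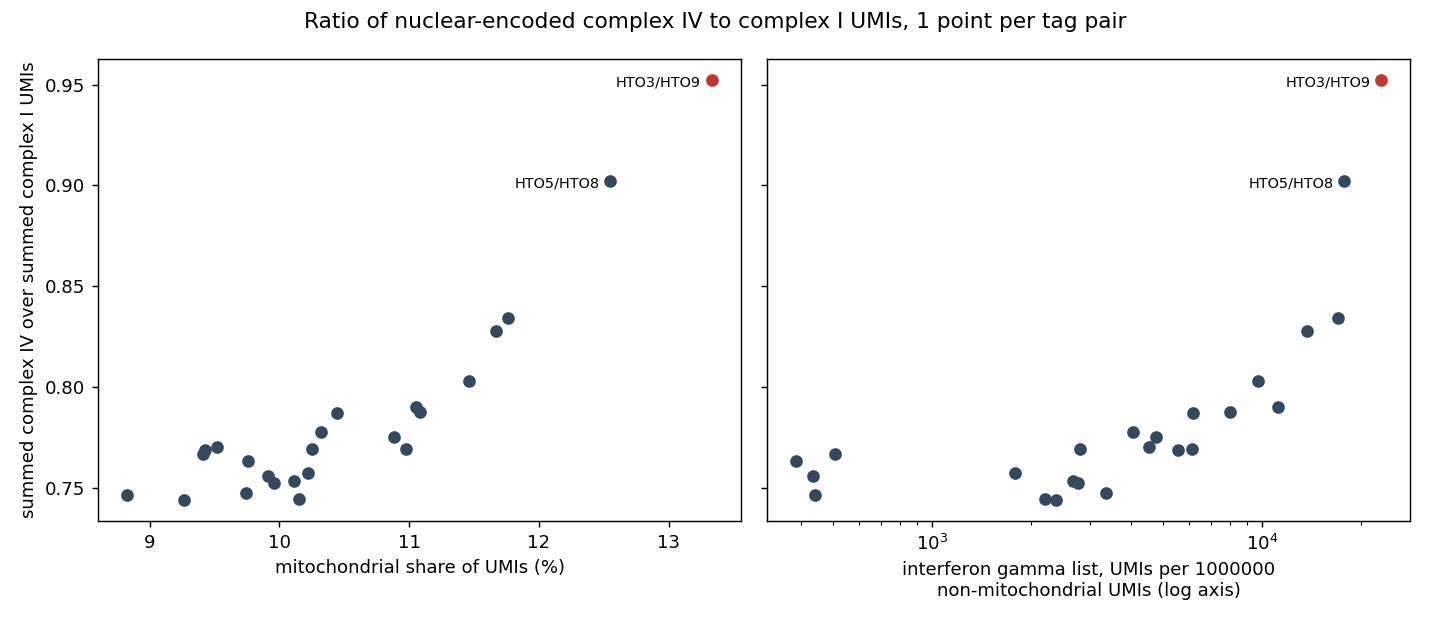
Summed complex IV over summed complex I UMIs (vertical axis) against the mitochondrial share of UMIs in percent (left) and the interferon gamma list in UMIs per 1000000 non-mitochondrial UMIs on a log axis (right), 1 point per tag pair. HTO3/HTO9 (red, 0.953) and HTO5/HTO8 (0.902) lie above the other pairs, and the 4 pairs with the lowest interferon gamma level lie at the left of the right panel.

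Gene by gene, on this scale, complex IV members were mostly positively correlated with these measures. In the other complexes the share of negative members was under that of all tested genes on the same scale. With the interferon gamma level 11 of the 73 members were positively and 16 negatively correlated (20 pairs, permutation test with Benjamini-Hochberg adjustment over 5767 genes, adjusted p below 0.05), against 17.8% and 39.2% of all tested genes. By complex the counts were 6 positive and 1 negative of 11 for complex IV, 4 and 9 of 36 for complex I, 0 and 1 of 8 for complex III, and 1 and 5 of 18 for complex V. The median r was 0.584 over complex IV, -0.219 over complex I, -0.122 over complex III, -0.252 over complex V and -0.329 over all tested genes. With DESeq2 size factors complex IV had 9 positive and 1 negative, against 21.2% and 33.7% of all genes. Complex I had 8 and 7 there, and complex V 3 and 4. With all UMIs as the denominator complex IV had 5 and 1, complex I 3 and 15 and complex V 1 and 9. All tested genes then had 919 positive and 2558 negative of 5767. The balance of directions in complexes I and V and the number of positive complex IV members thus depended on the scale.

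Within complex IV the positively correlated members were COX6C (r = 0.805, adjusted p = 0.000114), COX6A1 (0.701), COX7C (0.696), COX5B (0.694), COX4I1 (0.674) and COX7B (0.584, adjusted p = 0.0147), by the same permutation test over 20 pairs. COX4I1 is the widely expressed isoform of the largest nuclear-encoded subunit. COX5A went the other way (r = -0.792, permutation test, adjusted p = 0.000114), and remained negative without HTO3/HTO9 (-0.756). COX7A2, COX8A, COX6B1 and COX7A2L had r of 0.464, 0.381, 0.289 and 0.281 and did not pass. Without HTO3/HTO9, 8 members of complex IV were positive, against 15.8% of all genes, and 1 negative, against 34.9%.

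Of complex I, the strongest negative values were those of NDUFA10 (r = -0.880), NDUFA11 (-0.838), NDUFA12 (-0.796) and NDUFS3 (-0.777), each with an adjusted permutation p at or under 0.000114. NDUFA10 had 117 CPM in HTO3/HTO9, a median of 184 CPM and 204 CPM in HTO2/HTO8. Its 4 lowest pairs, HTO3/HTO9, HTO5/HTO8, HTO6/HTO8 and HTO4/HTO9, were also the 4 with the highest ratio of complex IV to complex I. NDUFA1, NDUFA9 and NDUFB5 were among the positive members (0.603, 0.579 and 0.508), so that subunits of 1 complex did not move together. Of complex III, UQCRFS1 was negative (r = -0.719). NDUFS3 and UQCRFS1 each had a gap between pairs over 0.25 of their range (0.444 and 0.392), as had COX6A1 of complex IV (0.261). Such a gap occurred in 4 of the 73 members and 777 of the 5767 tested genes, and was not used for single genes. NDUFS3 had 83.2 and 87.4 CPM in its lowest and second lowest pair, and UQCRFS1 had 121 and 127 CPM. Without HTO3/HTO9, r was -0.721 for NDUFS3 and -0.638 for UQCRFS1.

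Of complex V, ATP5MPL, a small membrane subunit, was the most negative member of all 73 (r = -0.881). It ran from 394 CPM in HTO3/HTO9 over 515 to 562 CPM in HTO4/HTO8. ATP5F1D (-0.666), ATP5F1B (-0.639), ATP5MC3 (-0.561) and ATP5MF (-0.495) were negative too. Without HTO3/HTO9, ATP5MC3 had r = -0.493 and ATP5MF had r = -0.268, and neither passed (permutation test, adjusted p = 0.0602 and 0.35). ATP5IF1 was positive (r = 0.599, adjusted permutation p = 0.012), and had r = 0.502 without HTO3/HTO9 (adjusted p = 0.0549).

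With the mitochondrial share 13 of 73 members were positively and 19 negatively correlated over 24 pairs by the same test, against 18.4% and 42.6% of all tested genes. Complex IV had 8 positive and 1 negative of 11, complex I 3 and 10 of 36, complex III 1 and 1 of 8 and complex V 1 and 7 of 18. COX6C (r = 0.853) and COX6A1 (0.800) again were the most positive, and NDUFA10 (-0.898) was the most negative. Without HTO3/HTO9 the members numbered 18 positive and 11 negative, against 16.0% and 37.3% of all genes.

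**Figure D4:**
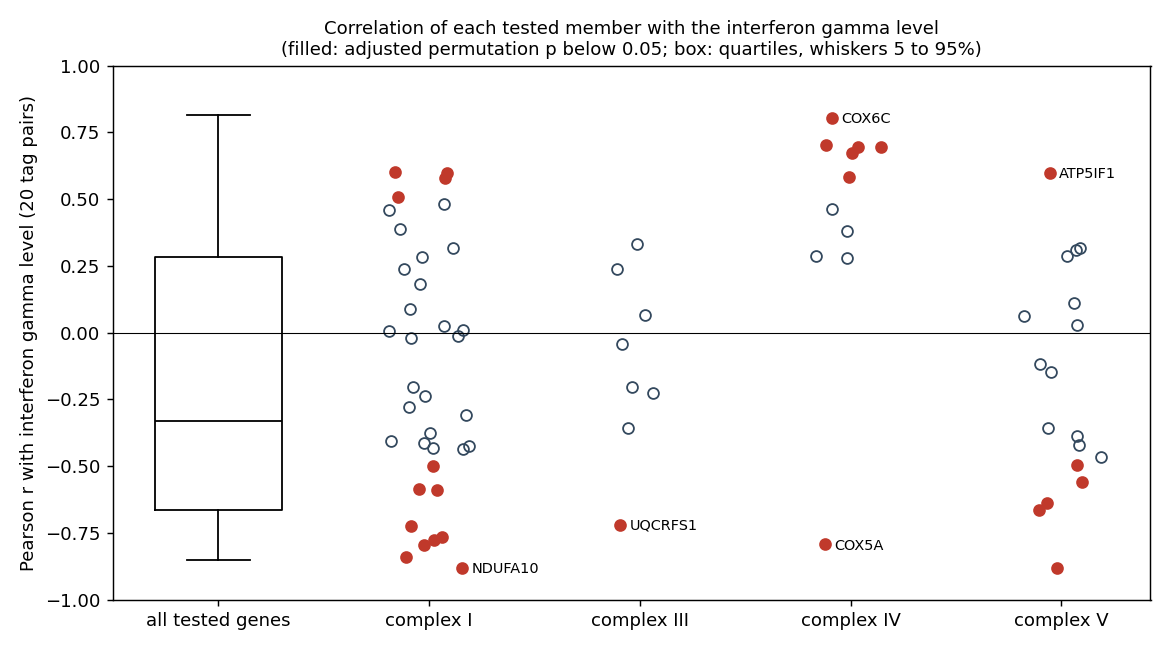
Pearson r of each tested member with the interferon gamma level over 20 tag pairs, by complex (filled red: adjusted permutation p below 0.05; open: not passed), beside all 5767 tested genes (box: quartiles and median, whiskers from the 5th to the 95th percentile). The complex IV points lie above 0 except COX5A (-0.792), while those of the other complexes lie on both sides.

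The 13 subunits encoded in mitochondrial DNA summed to 88258 CPM in HTO7/HTO10, 102343 CPM in the median pair and 133342 CPM in HTO3/HTO9. Their ratio to the nuclear-encoded members of the same complex was highest in HTO3/HTO9 for each complex. It ran from 3.08 to 5.73 for complex I (median 3.68), from 2.31 to 4.22 for complex III, from 10.2 to 14.8 for complex IV and from 1.44 to 3.24 for complex V. HTO3/HTO9 thus had the highest mitochondrial and the lowest nuclear level of complexes I, III and V, while its nuclear level of complex IV was near the median pair. With the interferon gamma level 8 of the 13 were positively correlated, against 17.8% of all tested genes, and MT-ND2, MT-ND6, MT-CYB and MT-ATP8 did not pass. The 13 genes make up the mitochondrial share, which was itself correlated with that level (r = 0.852 over 20 pairs), so this count is not separate from that relation. MT-ND1, of the membrane core of complex I, was the negative one (r = -0.844, permutation test, adjusted p = 6.67e-05), with its lowest level in HTO3/HTO9 (3274 CPM).

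Genes of the pathway outside the 85 gave a mixed picture. Of the 4 genes of complex II, which is encoded in the nucleus alone, SDHC was positively and SDHD negatively correlated with the interferon gamma level, and SDHA and SDHB did not pass. Without HTO3/HTO9 SDHD no longer passed (r = -0.421, permutation test, adjusted p = 0.118), and SDHA passed as positive (r = 0.710, adjusted permutation p = 0.00291). CYCS, cytochrome c itself, ran from 519 CPM in HTO3/HTO9 over 994 to 1138 CPM in HTO3/HTO8, with r = -0.881 (permutation test, adjusted p = 6.67e-05). NDUFA4, a subunit now placed in complex IV, ranged 1.19-fold (879 to 1048 CPM), with r = 0.441 (permutation test, adjusted p = 0.082). Without HTO3/HTO9 NDUFA4 passed, with r = 0.651 (permutation test, adjusted p = 0.00705), and with the mitochondrial share r went from 0.394 to 0.676 (adjusted permutation p = 0.0861 and 0.00161). C15orf48, its paralogue, known to be induced in inflammation, ran from 1.64 CPM in HTO1/HTO9 over 6.37 to 547 CPM in HTO3/HTO9. CYC1 and NDUFAB1, subunits of complexes III and I outside the symbol rule, had r of -0.441 and -0.465 and did not pass. With the mitochondrial share both passed as negative (r = -0.531 and -0.657, permutation tests, adjusted p = 0.0164 and 0.00191), and without HTO3/HTO9 CYC1 no longer did (r = -0.241, adjusted permutation p = 0.345).

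Among assembly factors past the same minimum, 5 of 6 for complex III, 5 of 11 for complex I and 5 of 16 for complex IV were negatively correlated with the interferon gamma level, and 0, 2 and 3 positively. Of the 76 tested mitochondrial ribosome proteins, which make the mitochondrially encoded subunits, 48 were negative and 1 positive, and their sum ran from 7295 CPM in HTO3/HTO9 over 10354 to 11055 CPM in HTO7/HTO10. For scale, 39.2% of all tested genes were negative, and 34.9% were without HTO3/HTO9. Without that pair 36 of the mitochondrial ribosome proteins were negative and 1 positive. The negative assembly factors then numbered 5 for complex III, 5 for complex I and 4 for complex IV. Of 10 regulators of mitochondrial gene expression 6 were negative and 1 positive. Of 12 glycolysis genes 6 were negative and 3 positive, and without HTO3/HTO9 3 were negative and 3 positive. The 84 tested genes of the cytosolic ribosome leaned the other way, with 14 negative and 26 positive, against 17.8% positive of all tested genes. Without HTO3/HTO9 they had 10 negative and 33 positive, against 34.9% and 15.8% of all tested genes.

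In single cells the members' share of a cell's UMIs had a median per pair from 1.79% in HTO3/HTO9 to 2.31% in HTO2/HTO9. Over the cells of a pair, r of this share with the cell's mitochondrial share ran from -0.298 to 0.137 and was below 0 in 20 of 24 pairs. For the share of complex IV alone it ran from -0.077 to 0.243 and was above 0 in 20 of 24 pairs. Cells of a pair come from 1 culture, and both shares have the cell's total in their denominator, so these are descriptions with no test.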

How the data were processed

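The deposited matrix holds UMI counts per gene and hashtag for each cell barcode, which the authors made with version 5.0.1 of Cell Ranger, as the file headers show. The submitters' processing notes list another version of it, 2.1.1, with GRCh38 as the build. For the annotation, the cell calling and the strand setting, the choice is not given in the sources used here. Names were read from the deposited table of features, and coordinates from GENCODE 29, in which each of the 85 members was found.

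Each kept barcode was assigned to its 2 highest tags where each had at least 3 times the count of any other tag, and pairs with fewer than 100 barcodes were not used. Barcodes with a further tag of like count, as doublets of cultures would have, were left out by this, and no doublet caller was run. No barcode occurred more than once in the matrix. UMIs were summed per tag pair and given as CPM, and as UMIs in each 1000000 non-mitochondrial UMIs for correlations. Intervals (95%, conditional binomial) cover counting error only. With 1 culture per condition and no map from tags to conditions, the spread between cultures could not be measured and no groups were compared.

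A range is the difference of log2(CPM + 10) between highest and lowest pair, and 2-fold was the limit for a call, for genes with a mean of 20 CPM or more. Correlations over pairs used Pearson's r and Spearman's rho of log2 levels with two-sided permutation tests of 100000 resamples and Benjamini-Hochberg adjustment. Where a gap between neighbouring pairs, with 2 or more pairs on each side, took over 0.25 of a measure's range, the larger side alone was used. For correlations of single genes, gaps in the gene were not used. Members are named if they had 1 of the 3 highest means, 3 widest or 2 narrowest ranges of a complex or a range of 2-fold, with the c ring genes and tissue-specific isoforms. Members named for a correlation, the roles of subunits, the ratio of complex IV to complex I and the correlations of single genes were chosen after their values were seen. The members and lists as a whole were chosen with earlier results of these data known. A member of complex I is counted in the sums and is not reported here by itself.

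Alternatives were other filters on cells and tags, other denominators (TMM of edgeR 4.0.16, size factors of DESeq2 1.42.0), other pseudocounts and minimum means, the mean over cells and each tag pair left out. Cells matched in mitochondrial share or depth and gaps in 1 measure alone were added after seeing the data. The range and correlation steps were tested on simulated data. Software was R 4.3.3, numpy 2.4.6, scipy 1.17.1, pandas 2.3.3 and matplotlib 3.10.9.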

Additional observations from a re-analysis of the deposited data

How the results depend on the processing

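The values given here are first the ratio of the highest to the lowest pair for all members and for complexes I, III, IV and V, and then correlations (r) over tag pairs. The cause of a change was not tested. Each ratio moved beyond its counting interval under several settings. With cells of 2000 or more genes and up to 10% mitochondrial UMIs the ratios were 1.141, 1.165, 1.258, 1.209 and 1.251, and with cells of 8 to 12% they were 1.196, 1.219, 1.312, 1.195 and 1.269. Scaled to non-mitochondrial UMIs they were 1.237, 1.291, 1.343, 1.204 and 1.337, by TMM 1.239, 1.293, 1.346, 1.278 and 1.339, and by DESeq2 size factors 1.2, 1.212, 1.261, 1.32 and 1.267. With cells of 10000 to 20000 UMIs the ratio was 1.263 for all members and 1.351 for complex V, and as the mean over cells it was 1.303 for all members. The number of members that ranged 2-fold was 4 under the stricter filter of 2000 genes, 2 without cells of 5 or more KRT81 UMIs and 2 with 8 to 12% mitochondrial UMIs. The share of all tested genes under these settings is not given here, so these counts cannot be set against it. The stricter filter left as few as 30 cells and 328560 UMIs per pair, where counting error is larger.

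With the mitochondrial share, the stricter filter gave r of 0.212 for all members, 0.2651 for complex I, 0.2739 for complex III, 0.1585 for complex IV, 0.08143 for complex V and -0.057 for the ratio of complex IV to complex I. DESeq2 size factors gave 0.2256 for all members, 0.4739 for complex I over 22 pairs and 0.08356 for complex III. Complex IV no longer passed under the stricter filter, nor with 8 to 12% mitochondrial UMIs, where it had 0.1512 over 12 pairs. Both filters select cells by the mitochondrial share and so narrow that measure. With 10000 to 20000 UMIs complex V had -0.5116 and passed. With all UMIs as the denominator complexes I and V passed, at -0.5505 and -0.6332. When gaps in the level were not used and HTO3/HTO9 and HTO5/HTO8 were left out, r was 0.2674 for all members, 0.07915 for complex I, 0.2725 for complex III and 0.0334 for complex V.

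With the interferon gamma level, the stricter filter gave 0.13 for all members and 0.0317 for complex III. DESeq2 size factors gave 0.2037 for all members, 0.3482 for complex I over 19 pairs and 0.04398 for complex III. With 8 to 12% mitochondrial UMIs r was 0.04858 for all members and -0.246 for complex IV, over 10 pairs. With all UMIs as the denominator complexes I and V passed, at -0.5773 and -0.5482. Without HTO3/HTO9 and HTO5/HTO8, gaps in the level not used, r was 0.1759 for all members and 0.1339 for complex III. The ratio of complex IV to complex I kept its direction and stayed past the threshold here in all settings run.

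With each tag pair left out in turn, the ratios ran from 1.139 to 1.286 for all members, 1.173 to 1.342 for complex I, 1.193 to 1.396 for complex III, 1.135 to 1.163 for complex IV and 1.147 to 1.389 for complex V, and 0 to 1 members ranged 2-fold. The r with the mitochondrial share ran from -0.218 to 0.2622 for all members, -0.2661 to 0.224 for complex III, 0.5436 to 0.7571 for complex IV and -0.5326 to -0.06893 for complex V. The r with the interferon gamma level ran from -0.2239 to 0.2095 for all members, -0.2795 to 0.1264 for complex III and -0.2036 to 0.7597 for complex IV. HTO3/HTO9 gave the upper end for all members and for complexes III and V. HTO5/HTO8 and HTO5/HTO9 gave the lower end for complex IV, where 12 and 10 pairs were left and complex IV no longer passed. HTO9/HTO10 gave the lower end for complex V, which passed there.
No paired analysis was possible because the labels give no replicate numbers to the tag pairs.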
